A study of Mus musculus with 4 samples.

Results

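*1700016P03Rik* (ENSMUSG00000085609) is the long non-coding transcript that hosts the microRNAs miR-132 and miR-212, and it was followed here as 1 of the 32285 genes counted in nuclei of the mouse posterior hindbrain. It was chosen by its own readout in these data, namely its level, share of nuclei and change between groups across neuronal clusters, so these values are given as a description, with no test. The tissue held the area postrema (AP) and the nucleus of the solitary tract (NTS), which receive signals from the gut and blood. Control mice (labelled WT; per the study's methods they lack both recombinases but carry the hM3DGq fl/- and hM4DGi fl/- alleles) were compared with AgRP-Gq;POMC-Gi mice. In the latter, AgRP-IRES-Cre drives the activating receptor hM3DGq in AgRP neurons and POMC-Dre drives the inhibiting receptor hM4DGi in POMC neurons. AgRP neurons and most POMC neurons lie in the hypothalamus, outside the tissue sampled. All mice were of the C57BL/6 background, 12 to 20 weeks old and of both sexes, and all were given 3 mg per kg of the receptor ligand clozapine N-oxide (CNO), with tissue collected 1 h later. There were 2 libraries per group. Per the study's methods, tissue of the same group was pooled, and the number of mice given per group equals that of libraries. The libraries therefore rest on very few mice. Nothing used here says which mice went into which library. The p-values thus measure the spread between these libraries, of which a part may be technical.

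Synaptic activity and growth factors raise calcium and cAMP in neurons, kinases then phosphorylate the transcription factor CREB, and CREB switches on immediate early genes (IEGs) such as *Fos* within minutes. The locus of miR-132 and miR-212 is a known CREB target that is transcribed in the same way. Its primary transcript is cut in the nucleus by Drosha and Dgcr8, the hairpins are exported and trimmed by Dicer1, and the mature miRNAs guide Argonaute proteins to messenger RNAs, in neurons among others to regulators of dendrite growth and synapses. The libraries were made with a 3′ kit from polyadenylated RNA of nuclei, so they count the host transcript and not the mature miRNAs.

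The gene lies on the plus strand of chromosome 11 at 75172560 to 75177633 (GRCm38, GENCODE M21), with exons of 38, 184 and 641 bases. Both hairpins lie in its first intron of 1380 bases, on the same strand, the one of miR-212 at 75173388 to 75173478 and the one of miR-132 at 75173682 to 75173747, with 203 bases between them. Their sequences (RefSeq, GRCm38.p6) are shown because they are the product of the transcript counted here, with the 3p mature miRNA in capitals.
Mir212 hairpin: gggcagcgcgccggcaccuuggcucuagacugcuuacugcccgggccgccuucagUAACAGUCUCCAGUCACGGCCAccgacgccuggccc
Mir132 hairpin: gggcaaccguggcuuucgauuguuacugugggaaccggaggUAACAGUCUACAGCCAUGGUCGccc
The mature forms follow with the seed, bases 2 to 8, in capitals, since the seed sets which messages a miRNA pairs with.
miR-132-3p: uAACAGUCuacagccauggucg
miR-212-3p: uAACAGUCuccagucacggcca
miR-132-5p: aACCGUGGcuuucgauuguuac
miR-212-5p: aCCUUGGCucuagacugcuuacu
The 3p forms share the seed AACAGUC and 17 of their 22 letters, including the first 9, so they form 1 seed group. The 5p forms have different seeds, ACCGUGG and CCUUGGC.

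The authors' annotation was used for cell types and clusters, and 39461 nuclei (9723 to 10051 per library) passed their quality filter. Neurons made up 12539 of these nuclei (31.8%) and carried the neuronal markers *Rbfox3*, *Snap25*, *Syt1*, *Snhg11* and *Meg3*, whose summed level was 20021, 20155, 21086 and 20392 UMIs per 1000000 (CPM) in control replicates 1 and 2 and AgRP-Gq;POMC-Gi replicates 1 and 2. All values below keep this order of libraries. *Xist*, a female marker, stood at 507, 319, 541 and 16.2 CPM in neurons, with the low value in AgRP-Gq;POMC-Gi replicate 2, so the libraries did not hold the same mix of mice. A barcode sequence found in more than 1 library occurred 168 times, and such barcodes were kept as separate nuclei.

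*1700016P03Rik* was a neuronal transcript in this tissue with a second site in cells that line the ventricle. Of its 3456 UMIs, 3165 (91.6%) lay in neurons, where its level was 22.2, 18.6, 25.3 and 32.8 CPM (24.7 ± 6.01, SD, n = 4). In oligodendrocytes, the most numerous type with 16816 nuclei, the level was 1.66, 1.59, 2.21 and 2.26 CPM, so all 4 neuronal libraries lay above all 4 oligodendrocyte libraries. The ratio of the means was 12.8. A UMI was found in 13.3% of neurons (exact 95% interval 12.7% to 13.9%) and in 0.505% of oligodendrocytes (0.404% to 0.625%), at a median depth of 8704 and 2460 UMIs per nucleus. With every nucleus thinned to 800 UMIs the shares were 2.04% and 0.143%. Intervals and limits on shares cover counting error only.

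Ependymal cells, the ciliated cells of the ventricle wall, had the highest mean of the 14 cell types. Their level was 58.5, 29.9, 82.4 and 52.2 CPM (55.7 ± 21.6, SD, n = 4), from 53 UMIs in 314 nuclei, and only the highest neuronal library reached into this range. A UMI was present in 15.0% of ependymal nuclei (11.2% to 19.4%), although these were shallower than neurons with a median of 2721 UMIs, and thinning to 800 UMIs left 3.50%. No ependymal nucleus held more than 2 UMIs, and the mean was 1.13 UMIs per nucleus with a UMI against 1.89 in neurons. The neuronal marker *Syt1* was at 95.9 ± 28.1 CPM in ependymal cells and at 1348 ± 38.3 CPM in neurons. Means of the other neuronal markers in ependymal cells and in neurons were 132 and 715 CPM for *Snap25* and 30.7 and 256 CPM for *Rbfox3*. For *Meg3* they were 1014 and 9917 CPM and for *Snhg11* 440 and 8177 CPM.

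Tanycyte-like cells came next in mean level because of a single library. They stood at 10.2, 0, 136 and 15.3 CPM, and AgRP-Gq;POMC-Gi replicate 1 held 28 of their 34 UMIs. In that same library the IEG *Fos* of these cells was at 539 CPM, against 82, 37.5 and 95.0 CPM in the other libraries in order, and *Junb* at 238 CPM against 41, 25.0 and 55.2 CPM. This was not limited to tanycyte-like cells. *Fos* was highest in that library in ependymal cells (7.81, 0, 90.6 and 4.35 CPM) and astrocytes (4.11, 3.76, 37.6 and 7.61 CPM), but not in neurons (5.70, 5.18, 5.26 and 8.28 CPM). Ependymal *Junb* was at 0, 4.98, 82.4 and 0 CPM. Mural cells, the pericytes and muscle cells of vessels, had 11 of their 15 UMIs in AgRP-Gq;POMC-Gi replicate 2 (1.87, 7.0, 0 and 41.1 CPM). Neither tanycyte-like nor mural cells allow a statement on the groups, since their libraries of 1 group differ by more than the groups do.

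The remaining types were low. Their means ran from 9.67 CPM in fibroblasts over 6.49 CPM in nuclei between oligodendrocytes and their precursors, 5.48 CPM in *Tmem119* immune cells (microglia), 3.60 CPM in oligodendrocyte precursors, 2.72 CPM in endothelial cells, 2.67 CPM in astrocytes and 2.66 CPM in choroid plexus to 1.93 CPM in oligodendrocytes. In this order every type overlapped its neighbours in the range of its 4 libraries, so the order of neighbours is not resolved. All 4 fibroblast libraries (4.77 to 22.2 CPM, from 14 UMIs) lay above those of oligodendrocyte precursors (2.07 to 4.47 CPM). They also lay above those of astrocytes (2.01 to 3.46 CPM) and oligodendrocytes (1.59 to 2.26 CPM). Astrocytes were at 3.46, 2.01, 2.69 and 2.54 CPM from 43 UMIs in 4378 nuclei. No UMI was found in 88 *F13a1* immune nuclei, which allows a share of up to 3.41%, or in 61 *Ms4a4b* immune nuclei, which allows up to 4.92%, so a level like that of oligodendrocytes was not detectable there.

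**Figure D1:**
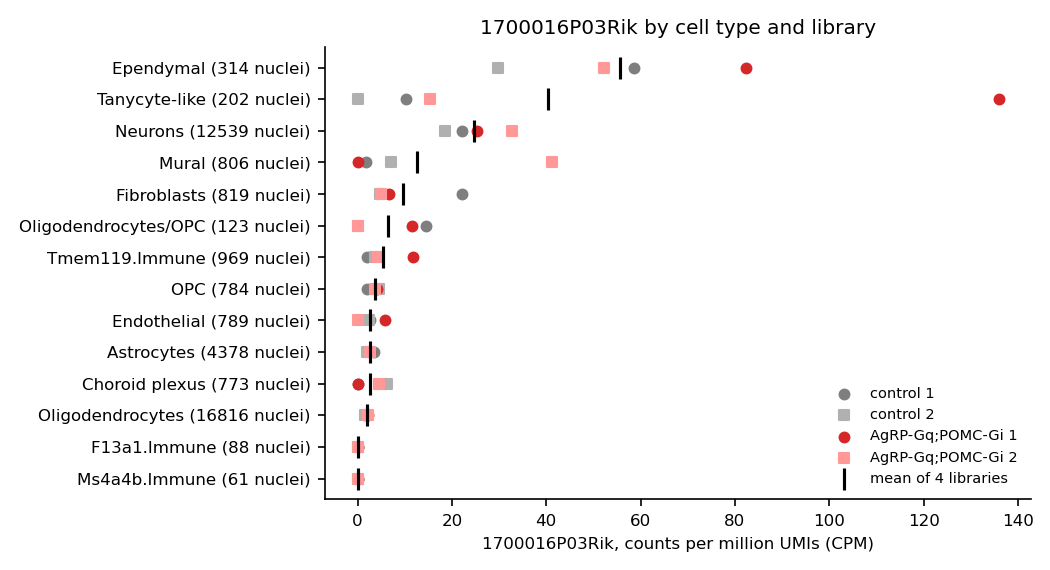
Level of *1700016P03Rik* in CPM (horizontal axis) in the 14 annotated cell types, ordered by the mean of the 4 libraries (black bar), with 1 point per library. Neurons lie between 18.6 and 32.8 CPM in all libraries, ependymal cells between 29.9 and 82.4 CPM, and the high mean of tanycyte-like cells rests on 1 library at 136 CPM.

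Within neurons the gene was found in every cluster but at very unequal levels. All 134 neuronal clusters held at least 1 UMI, and cluster means ran from 1.15 to 140 CPM with a median of 19.1 CPM. In 67 clusters all 4 libraries lay above the highest oligodendrocyte library, whereas another 67 clusters had at least 1 library at 0. Transmitter class did not separate the levels. The median was 21.4 CPM over 69 glutamatergic clusters, called from the vesicular glutamate transporter *Slc17a6*, and 17.7 CPM over 46 GABAergic clusters, called from the vesicular GABA transporter *Slc32a1*, with ranges of 2.64 to 140 CPM and 1.15 to 90.6 CPM. The remaining clusters were 7 mixed and 12 not called ones. Each cluster carries the names of a pair of marker genes from the authors' table.

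Several but not all high clusters among the 77 for which no library had fewer than 10 nuclei were spread widely over their libraries. The Ryr1/Tfap2b cluster, a GABAergic cluster, was at 65.5, 14.7, 182 and 66.4 CPM. The Gal/Dkk2 cluster, whose marker *Gal* encodes the neuropeptide galanin, was at 132, 47.8, 2.57 and 146 CPM. The Col12a1/Tnc cluster was at 58.6, 179, 0 and 85.1 CPM. In each of these 3 clusters the lowest library lay far below the highest, and only in the Ryr1/Tfap2b cluster were the groups apart.

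The Tfap2b/Cntnap5b cluster was at 64.8, 39.9, 134 and 66.7 CPM. The Qrfpr/Tac1 cluster, marked by the substance P gene *Tac1*, was at 104, 74.5, 38.6 and 48.0 CPM. Its control replicate 1 rested on 1 nucleus, which held 13 of the 14 UMIs. The Necab1/Arhgap15 cluster was at 36.2, 43.3, 116 and 69.5 CPM and the Col18a1/Gpc3 cluster at 73.0, 46.4, 34.2 and 79.9 CPM. The ranges of these 7 clusters overlap one another, so their order is not resolved by 4 libraries. The Olfr78/Calcr cluster (139 CPM) and the Tph2/Slc6a4 cluster, the serotonin neurons (113 CPM), also ranked high by their mean but had as few as 3 and 5 nuclei in a library, and each had 1 library at 0.

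At the other end, the Npsr1/Igf1 cluster had 2 UMIs in 102 nuclei (0, 0, 4.58 and 0 CPM). The Fgf10/Cpne4 cluster had 4 UMIs in 61 nuclei, the Sema3a/Il1rapl2 cluster had 3 in 90 and the Il1rapl2/Grm8 cluster had 7 in 86. These nuclei were not shallow, with medians of 9057 to 12531 UMIs. Over the 122 clusters of at least 40 nuclei the level had a Spearman correlation of -0.20 with the median depth of the cluster, so deeper clusters did not have the higher level.

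**Figure D2:**
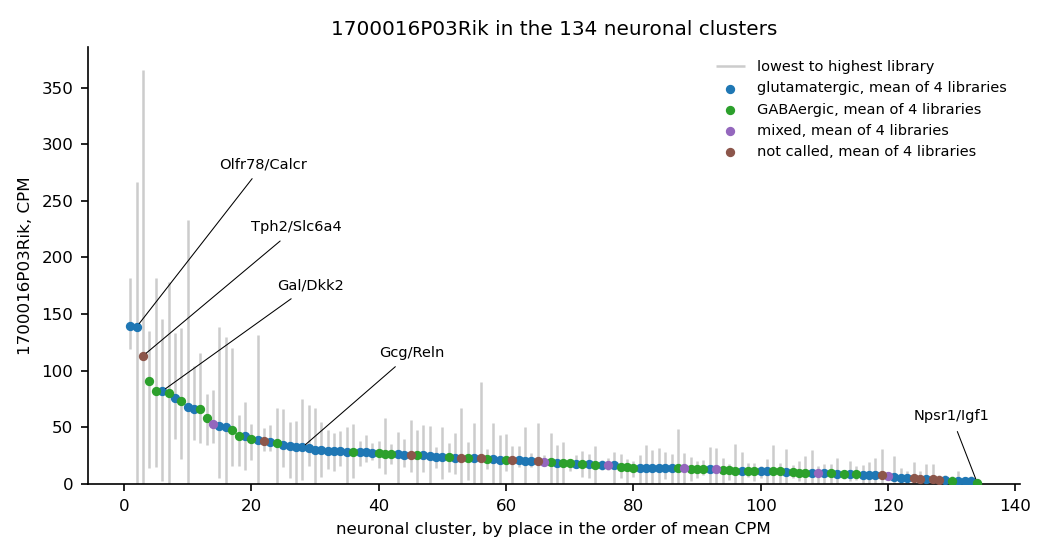
Mean CPM of *1700016P03Rik* in each of the 134 neuronal clusters (points, coloured by transmitter class), ordered from high to low, with a grey line from the lowest to the highest of the 4 libraries. Many of the leading clusters have lines that reach toward 0, as the Gal/Dkk2 cluster does (2.57 to 146 CPM), and the levels fall to 1.15 CPM in the Npsr1/Igf1 cluster.

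A small number of nuclei held a large part of the UMIs. Of the 1671 neurons with a UMI, 67.1% had exactly 1. At the other end 118 neurons (0.941% of all) had at least 5 UMIs and together held 30.7% of the neuronal UMIs. They numbered 21, 16, 36 and 45 in the 4 libraries and were scattered over 57 clusters. At least 10 UMIs were found in 26 neurons of 14 clusters, and the highest count was 25. Outside neurons only 2 nuclei reached 5 UMIs.

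Genes found in a like share of neurons were mostly more even. Of 1956 genes with a UMI in 10.7% to 16.7% of neurons, 32 had more UMIs per nucleus with a UMI than *1700016P03Rik* (1.89; median of the 1956 genes 1.15). Only 23 had more nuclei with at least 5 UMIs, and the median gene had 0. The genes at the head of that order, such as *Rorb* (4.45), *Ebf2* (4.24) and *Reln* (4.00), are markers of neuron types, and *Ebf2* and *Reln* lend their names to clusters.

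The nuclei with at least 5 UMIs concentrated in part in the leading clusters. The Ryr1/Tfap2b cluster held 9 of them (1, 0, 6 and 2 in the 4 libraries), the Gal/Dkk2 cluster held 8 and the Col18a1/Gpc3 cluster held 6. Such nuclei supplied 64.8% of the UMIs of the Ryr1/Tfap2b cluster. The share was 79.2% for Gal/Dkk2, 62.5% for Col12a1/Tnc and 65.6% for Tfap2b/Cntnap5b. In the Col18a1/Gpc3 cluster they supplied 27.2%, where 57 of 161 nuclei had a UMI. High clusters therefore differed in whether the level came from many nuclei or from a few.

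Messages of several IEGs were found in a higher share of neurons with the host transcript than of neurons without it, although most neurons with the host transcript had no UMI of the single IEG. For this comparison every nucleus was thinned to 4000 UMIs (neurons with fewer were left out, leaving 2217, 2507, 3299 and 3365), and odds ratios were combined over clusters (Mantel-Haenszel), so that neurons are compared within clusters. The authors took IEGs out of the genes used for clustering. After thinning, 150, 147, 225 and 282 neurons had a UMI of *1700016P03Rik*.

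*Fos*, the classic IEG and a subunit of the AP-1 transcription factor, had the highest odds ratio of the 14183 genes found in at least 1% of thinned neurons. It was detected in 14%, 12.2%, 9.33% and 16% of neurons with the host transcript and in 1.11%, 1.36%, 1.56% and 1.69% of those without. The odds ratios were 16.9, 23.6, 5.70 and 8.42, and 9.61 over all libraries. This first place held at 4000 UMIs. *Nr4a3* lay above *Fos* without thinning (8.35 against 6.67) and at 2000 UMIs (17.6 against 8.54), where it was found in 0.485% of neurons. All 4 libraries, control ones included, lay far above 1 for *Fos*, where the median gene stood at 0.99.

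Of the 20 highest odds ratios, 5 belonged to the 9 other IEGs of the study, *Fos* included, 5 to the list of CREB targets and activity genes, and 10 to neither list. *Nr4a3*, an orphan nuclear receptor, came next (odds ratio 6.69; 11.6, 3.83, 9.63 and 5.28 per library) and the CREB-induced kinase *Sik1* after it (5.19; 2.94, 3.64, 6.76 and 6.30). *Junb*, another AP-1 subunit, followed (4.09; 3.29, 4.54, 4.04 and 4.27). The nuclear receptor *Nr4a1* (3.36; 2.64, 3.14, 3.78 and 3.49), the clock gene and CREB target *Per1* (3.34; 3.04, 2.33, 4.75 and 3.05) and the small GTPase gene *Gem* (3.32; 4.13, 1.14, 4.15 and 3.21) were also within the first 8. *Gm13912* (3.46) and *Ano2* (3.29), genes of neither list, took places 5 and 9. *Btg2* (2.97), a reported target of miR-132 and itself induced by activity, took place 10. Each of these lay above 1 in all 4 libraries, as did 953 of the 14183 genes (6.72%).

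Of the 8 ranked study IEGs, 6 were above 1 in all 4 libraries. The sixth was *Homer1*, a scaffold of glutamate receptors whose short form is activity-induced, at 1.67 (1.36, 1.5, 1.93 and 1.73; place 124). *Jun*, a stress-responsive AP-1 subunit, had odds ratios of 1.53, 1.27, 0.81 and 1.31, and *Btg1*, an antiproliferative gene, 1.31, 0.72, 1.39 and 1.05. These 2 genes therefore scattered around 1. *Fosl2* was detected in 0.720% of thinned neurons, too few to be ranked, with an odds ratio of 9.78 (8.24 to 15.6 per library). The study chose its 10 IEGs, *1700016P03Rik* among them, as indicators of activation, so their joint detection is not independent evidence on that list.

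Of the 22 genes of the CREB and activity list 12 were ranked, and 9 of these were above 1 in all 4 libraries. They include *Pcsk1* (2.50), which processes prohormones and was described as cAMP-responsive, the neuronal IEG *Npas4* (2.36), *Egr1* (2.33) and *Bdnf* (2.09), a growth factor for synapses. *Vgf*, a secreted neuropeptide precursor, stood at 1.95, *Scg2* at 1.52 and *Crem*, a CREB relative, at 1.59 with 3 of 4 libraries above 1. The neuronal markers showed no such excess, with *Rbfox3* at 0.98 (0.87 to 1.10), *Syt1* at 0.77 and *Snap25* at 1.21 with 2 of 4 libraries above 1. *Snhg11* and *Meg3* were found in almost every neuron, so no odds ratio was available for them.

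The share of neurons with *Fos* rose with the number of host UMIs. Without thinning, *Fos* was found in 2.48% of neurons with 0 UMIs of *1700016P03Rik* (2.19% to 2.78%), 8.29% with 1 (6.74% to 10.1%), 22% with 2 to 4 (18.2% to 26.3%) and 61.9% with at least 5 (52.5% to 70.6%). In that last class the 4 libraries stood at 66.7%, 50.0%, 61.1% and 64.4%, so the groups overlapped (21, 16, 36 and 45 neurons). The median depth of the 4 classes was 8434, 9991, 11500 and 10813 UMIs. *Nr4a1* went from 9.73% to 73.7%, *Junb* from 5.85% to 56.8% and *Nr4a3* from 0.874% to 41.5% over the same classes. *Jun* went from 8.21% to 20.3%, *Btg1* from 17.9% to 31.4% and the neuronal marker *Rbfox3* from 74.9% to 82.2%.

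**Figure D3:**
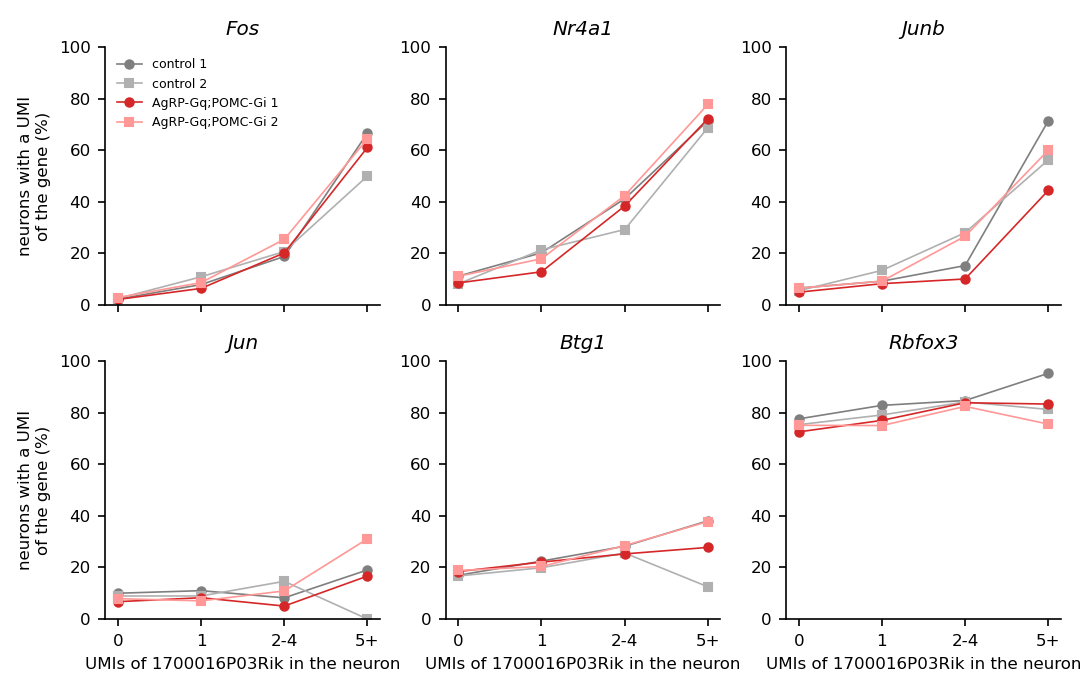
Share of neurons with a UMI of 6 genes (vertical axis, percent) against the number of *1700016P03Rik* UMIs in the same neuron (0, 1, 2 to 4, 5 or more), 1 line per library. *Fos*, *Nr4a1* and *Junb* climb steeply in all 4 libraries (*Fos* from 2.48% to 61.9% over all neurons), whereas *Jun* and *Btg1* climb less, end lower than they start in control replicate 2, and *Rbfox3* starts at 74.9% and ends at 82.2%.

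Between the groups, neurons of AgRP-Gq;POMC-Gi libraries had the higher level. Control libraries averaged 20.4 ± 2.54 CPM (SD, n = 2) and AgRP-Gq;POMC-Gi libraries 29.0 ± 5.27 CPM (SD, n = 2), without overlap. The fitted log2 fold change was 0.56 (SE 0.13). No p is given, because the gene was selected on this contrast.

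Both the share of nuclei and the UMIs per nucleus entered this difference. A UMI was found in 13.5%, 10.9%, 12.5% and 15.9% of neurons, a log2 ratio of the group means of 0.22, and here the groups overlapped. These shares depend on depth, and the median neuron of the libraries had 9624, 8728, 8252 and 8514 UMIs. With every neuron thinned to 4000 UMIs the shares were 6.59%, 5.66%, 6.88% and 8.80%, a log2 ratio of 0.36, and the groups did not overlap. Neurons with a UMI held 1.79, 1.71, 1.95 and 2.00 UMIs on average, a log2 ratio of 0.18, with both AgRP-Gq;POMC-Gi libraries higher. Neurons with at least 5 UMIs made up 0.850%, 0.585%, 0.974% and 1.24%, again without overlap. When each nucleus was counted with at most 1 UMI, the log2 ratio of the group means of CPM fell from 0.51 to 0.33.

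Weighting clusters alike in all libraries gave a smaller difference too. With each cluster of at least 5 nuclei per library given its share of all nuclei, the levels were 24.7, 20.3, 26.4 and 32.4 CPM, a log2 ratio of 0.38. Thinning neurons to 4000 UMIs gave 22, 19.8, 27.1 and 33.9 CPM, a log2 ratio of 0.54. In all 3 versions both AgRP-Gq;POMC-Gi libraries stayed above both control libraries, and the smallest gap was between control replicate 1 and AgRP-Gq;POMC-Gi replicate 1.

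Glutamatergic and GABAergic neurons differed in how the libraries lay. Glutamatergic clusters stood at 23.4, 18.7, 24.7 and 39.8 CPM, so AgRP-Gq;POMC-Gi replicate 2 stood apart and replicate 1 was close to the higher control (log2 fold change 0.67, SE 0.20). In these clusters the groups overlapped with neurons thinned to 4000 UMIs (27.0, 20.8, 26.5 and 44.4 CPM) and with clusters weighted alike (26.4, 20.5, 25.6 and 38.4 CPM), since replicate 1 then lay below control replicate 1. Without AgRP-Gq;POMC-Gi replicate 2 the fold change was 0.35 and without replicate 1 it was 0.93. GABAergic clusters stood at 21.2, 19.4, 27.7 and 26.4 CPM, where both AgRP-Gq;POMC-Gi libraries were alike (log2 fold change 0.47, SE 0.13; 0.38 to 0.56 without 1 library of the group). Whether the classes differ in their change was not tested.

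**Figure D4:**
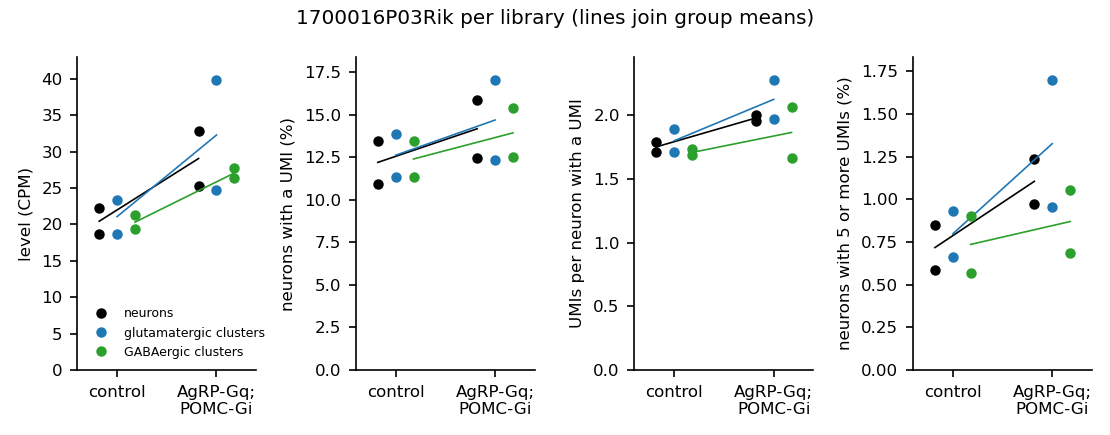
Measures of *1700016P03Rik* in control (left) and AgRP-Gq;POMC-Gi libraries (right) for all neurons, glutamatergic clusters and GABAergic clusters, with 1 point per library and lines joining group means. For all neurons the level and the UMIs per neuron with a UMI do not overlap between groups (18.6 and 22.2 against 25.3 and 32.8 CPM), whereas the share of neurons with a UMI does.

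Oligodendrocyte transcripts in neurons lay lower in AgRP-Gq;POMC-Gi libraries. All 6 markers had an unadjusted p under 0.05 with edgeR and none passed after adjustment, and DESeq2 called 3. The summed level of the 6 oligodendrocyte markers, *Mog*, *Mbp*, *Mag*, *Mobp* and *Cnp* among them, in neurons was 304, 259, 151 and 195 CPM, and all 6 were above 0. Astrocyte markers stood at 84.3, 58.7, 46.1 and 63.4 CPM (5 of 5 above 0) and microglia markers at 137, 135, 151 and 138 CPM (4 of 4 above 0). The microglia sum came largely from *P2ry12* (122, 120, 138 and 120 CPM), found in 58.7% of neurons. *Tmem119* was at 0.19, 0.36, 0.20 and 0.45 CPM, *Csf1r* at 1.75, 1.79, 1.26 and 2.13 and *Cx3cr1* at 13.7, 13.1, 12.3 and 15.3. The astrocyte sum came largely from *Slc1a2* (68.9, 43.9, 34.8 and 49.2 CPM). *1700016P03Rik* itself was at 1.93 CPM in oligodendrocytes. The part of these transcripts in the difference between the groups was not tested.

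Cluster by cluster, more clusters were higher than lower in AgRP-Gq;POMC-Gi libraries. Among 87 clusters of 10 or more UMIs, each library holding 5 or more nuclei, both AgRP-Gq;POMC-Gi libraries lay above both control libraries in 27 (31.0%) and below both in 8 (9.20%). Over 1135926 pairs of another gene and a cluster under the same minimum, these shares were 15.1% and 18.8%. The gene was chosen on this contrast, so nothing is read from the excess. The median log2 fold change of the 87 clusters was 0.49, with 56 higher and 31 lower, and the median SE of a cluster was 0.72, larger than this change.

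Fold changes were ranked over 45 clusters for which no library had fewer than 10 nuclei and the UMIs reached 20. The Gcg/Reln cluster, the NTS neurons that make preproglucagon, stood at 7.23, 3.96, 43.6 and 74.7 CPM (log2 fold change 3.53, SE 0.69). It had 3 UMIs in both control libraries together, against 35 from AgRP-Gq;POMC-Gi nuclei, a ratio per UMI of 11.1 with an exact 95% counting interval of 3.50 to 56.5. The interval is no test, since the cluster was picked for its fold change, and it is too narrow, since it treats UMIs as independent while 3 nuclei held 52.6% of the UMIs of the cluster. The Rbm20/Nox4 cluster was at 7.27, 2.84, 24.2 and 20.1 CPM (1.91, SE 0.72) and the Klhl1/Tafa1 cluster at 13.5, 15.3, 47.5 and 42.0 CPM (1.70, SE 0.51). In these 3 clusters both AgRP-Gq;POMC-Gi libraries were higher than both control libraries, and in the Gcg/Reln cluster the AgRP-Gq;POMC-Gi libraries also lay far from each other.

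The Sema3a/Cdh9 cluster was at 39.3, 5.39, 139 and 21.7 CPM (log2 fold change 2.34, SE 0.87), so its groups overlapped. The Ryr1/Tfap2b cluster had a log2 fold change of 1.71 (SE 0.64), and the higher AgRP-Gq;POMC-Gi library decided its size, since replicate 2 at 66.4 CPM hardly passed control replicate 1 at 65.5 CPM. The Tal1/Nell1 cluster, a GABAergic cluster, was at 22.8, 15.7, 120 and 32.5 CPM (1.68, SE 0.56), again with 1 library far above the rest. In that library 1 of the 17 nuclei held 13 of the 18 UMIs. The Ebf2/Th cluster, marked by tyrosine hydroxylase, had a log2 fold change of 0.34 (SE 0.63) at 23.5, 30.0, 21.4 and 35.9 CPM with overlapping groups.

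The lowest fold change was that of the Foxp2/Il1rapl2 cluster, at 57.9, 29.4, 8.99 and 9.73 CPM (log2 fold change -2.04, SE 0.56). Of its 20 UMIs in control replicate 1, 14 came from 1 nucleus, so the size of this change rests in part on that nucleus. The Cdh3/Nkain3 (-1.18, SE 0.68), Qrfpr/Tac1 (-1.05, SE 0.59), Il1rapl2/Slc6a5 (-1.03, SE 0.52) and Agtr1b/Cntnap5b clusters (-0.80, SE 0.51) also had both AgRP-Gq;POMC-Gi libraries below both control libraries. In the Qrfpr/Tac1 cluster 1 nucleus held 13 of the 14 UMIs of control replicate 1. In control replicate 2, 1 nucleus held 9 of 17 UMIs for Il1rapl2/Slc6a5 and 5 of 11 for Cdh3/Nkain3. For Agtr1b/Cntnap5b the highest nucleus, with 6 of 11 UMIs, lay in AgRP-Gq;POMC-Gi replicate 2. The changes without these nuclei were not fitted. The Col12a1/Tnc cluster had -1.06 (SE 0.59) with overlapping groups. These clusters were picked for their low fold change from the values that chose the gene, and most of these fold changes lay within about 2 SE of 0.

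**Figure D5:**
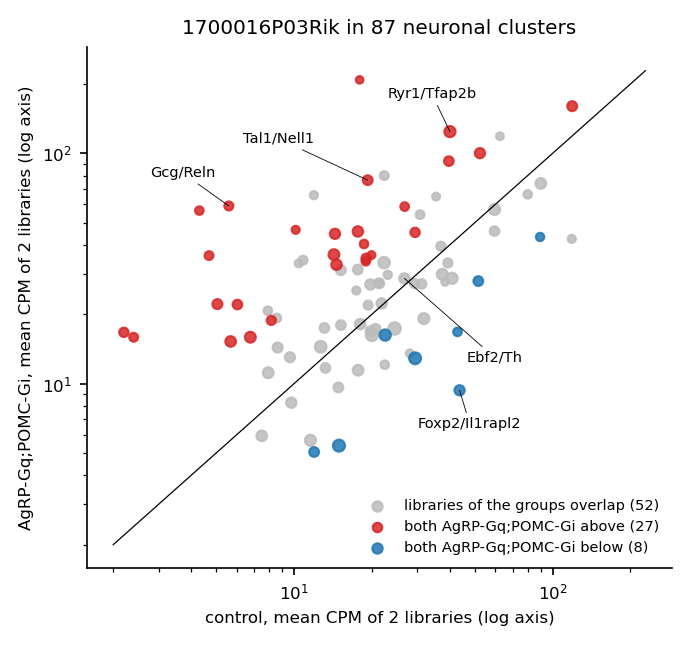
Mean CPM of *1700016P03Rik* in control (horizontal) and AgRP-Gq;POMC-Gi libraries (vertical, both log axes) in 87 neuronal clusters; point area grows with the number of nuclei and the line marks equal levels. Both AgRP-Gq;POMC-Gi libraries lie above both control libraries in 27 clusters (red, the Gcg/Reln cluster farthest from the line among those labelled), below both in 8 (blue), and the rest overlap (grey).

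The genes whose level over clusters was most like that of *1700016P03Rik* were only moderately like it. Over 122 clusters of at least 40 nuclei and 12114 genes, the highest Spearman correlation of mean log2(CPM + 1) was 0.58, for *Cbarp*, a regulator of calcium channels, and the median gene had 0.02. *Ptprn*, a protein of dense-core vesicles, had 0.56, *Gm28294* 0.51, *Dpyd* 0.50, *Gm26871* 0.49, *Tmem130* 0.48, *Ldha* 0.47, *Epn2* 0.47, *Slc8a2*, a sodium/calcium exchanger, 0.46 and *1600020E01Rik* 0.46. Of the other study IEGs 5 had a value, namely *Junb* with 0.46, *Nr4a1* with 0.40, *Homer1* with 0.35, *Btg1* with 0.24 and *Jun* with 0.15. The 10 genes of the CREB and activity list that had one ran from 0.45 for *Pcsk1* and 0.40 for *Per1* down to 0.14 for *Bdnf*, 0.03 for *Dusp1* and 0.02 for *Inhba*. Over control libraries alone *Cbarp* had 0.39, and 1 of the 10 genes remained among the first 10. All clusters share the same 4 libraries, and the counts are sparse.

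Among the other study IEGs, 5 of 9 were found in at least 5% of neurons and so entered the test between the groups. None passed with edgeR's quasi-likelihood test (adjusted p over all 12114 genes; 0 genes or 0% passed, 666 had an unadjusted p under 0.05), whereas DESeq2 called 12 genes (0.0991%), none of them an IEG. Their log2 fold changes were 0.28 (SE 0.18) for *Nr4a1*, 0.27 (SE 0.09) for *Btg1*, 0.07 (SE 0.09) for *Homer1*, 0.01 (SE 0.16) for *Junb* and -0.14 (SE 0.13) for *Jun*. The median of the 5 was 0.07, and that of all 12114 genes was 0.00. Of the 5, *Btg1* alone had an unadjusted p under 0.05 (edgeR's quasi-likelihood test, adjusted p = 0.81).

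The 4 study IEGs found in fewer than 5% of neurons were low in all libraries. *Fos* was at 5.70, 5.18, 5.26 and 8.28 CPM, *Nr4a3* at 2.83, 2.30, 3.4 and 4.48, *Gem* at 5.10, 3.32, 6.15 and 6.29 and *Fosl2* at 2.12, 1.64, 1.46 and 3.32. For *Nr4a3* and *Gem* the groups did not overlap, whereas for *Fos* and *Fosl2* only AgRP-Gq;POMC-Gi replicate 2 stood above the rest. Nothing is read from the lack of overlap, since the share of all genes with it in neurons was not counted. Over all pairs of a gene and a cluster, both AgRP-Gq;POMC-Gi libraries lay above both control libraries in 15.1%. AgRP-Gq;POMC-Gi replicate 2 also had the highest level of *1700016P03Rik*. Its *Xist* level was the lowest, at 16.2 CPM against 319 to 541 CPM in the other libraries. Whether the mix of sexes bears on these levels was not tested.

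With edgeR's own, more lenient filter (filterByExpr) all 9 study IEGs were tested, and the picture over the list differed. Of the 9 genes 8 were higher and 1 lower, with a median log2 fold change of 0.29, against 0.00 over 19687 genes. The values of the added genes were 0.68 (SE 0.21) for *Nr4a3*, 0.63 (SE 0.21) for *Gem*, 0.39 (SE 0.36) for *Fosl2* and 0.37 (SE 0.21) for *Fos*. None of the 9 passed (edgeR's quasi-likelihood test; 1 gene or 0.00508% passed), and *Nr4a3*, *Gem* and *Btg1* had an unadjusted p under 0.05 (edgeR, adjusted p = 0.83 for each).

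In the list of CREB targets and activity genes 10 of 22 were tested, and none passed in either direction (edgeR; 1 had an unadjusted p under 0.05; none passed with DESeq2). The median log2 fold change was 0.09, with 7 higher and 3 lower. The most abundant was *Scg2*, a granin of dense-core vesicles, at 131, 138, 115 and 160 CPM. *Pcsk1* stood at 30.6, 32.3, 29.1 and 50.7 CPM, *Crem* at 29.2, 28.6, 29.0 and 30.0 and *Vgf* at 24.3, 26.2, 20.7 and 25.9. The groups overlapped in each of these 4 genes. The single gene at an unadjusted p under 0.05 was *Per1*, with a log2 fold change of 0.44 (SE 0.15; edgeR, adjusted p = 0.81).

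CREB and its coactivators gave no call. Of 14 genes 13 were tested, none passed in either direction with edgeR or DESeq2, none had an unadjusted p under 0.05, and the median log2 fold change was 0.02. *Creb1* itself stood at 76.1, 77.5, 70.1 and 77.6 CPM (0.00, SE 0.06). The salt-inducible kinase *Sik3* was at 312, 311, 310 and 313 CPM, the acetyltransferase *Crebbp*, which binds phosphorylated CREB, at 207, 205, 157 and 193, the kinase *Camk4* at 118, 126, 121 and 124 and the coactivator *Crtc3* at 118, 119, 114 and 119. In *Crebbp* both AgRP-Gq;POMC-Gi libraries lay lower, with a log2 fold change of -0.18 (SE 0.09). The CPM of *Prkaca*, *Atf1* and *Crtc1* of this list also lay lower in both. Nothing is read from this, since the share of all genes without overlap in neurons was not counted.

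The machinery that makes and uses miRNAs was expressed in neurons of every library. All 14 genes were tested, none passed in either direction with edgeR or DESeq2, none had an unadjusted p under 0.05, and the median log2 fold change was 0.02. *Drosha* stood at 37.2, 44.5, 37.2 and 41.8 CPM, *Dgcr8* at 42.7, 45.9, 35.9 and 45.1 and *Dicer1* at 67.7, 67.7, 64.7 and 72.0. The Argonaute gene *Ago3* was at 280, 293, 281 and 284 CPM. The silencing adaptors *Tnrc6b* (398, 402, 414 and 395), *Tnrc6c* (367, 360, 367 and 366) and *Tnrc6a* (322, 321, 301 and 308) had fitted log2 fold changes between -0.02 and 0.08.

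Genes reported elsewhere as targets of miR-132 and miR-212 did not pass either. Of 15 such genes 12 were tested, none passed in either direction with edgeR or DESeq2 and 1 had an unadjusted p under 0.05, with a median log2 fold change of -0.04, 4 higher and 8 lower. *Arhgap32* (p250GAP), which restrains dendrite growth, stood at 184, 189, 213 and 184 CPM, *Paip2* at 203, 192, 165 and 194, *Rasa1* at 140, 135, 121 and 141 and *Ptbp2* at 122, 127, 132 and 127. *Itpkb*, a kinase of inositol phosphates, had the unadjusted p under 0.05, with a log2 fold change of -0.28 (SE 0.11; edgeR, adjusted p = 0.81).

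The 3′UTR of 14 of the 15 targets holds the heptamer complementary to the shared seed, GACTGTT, and 6 hold it followed by A (the octamer GACTGTTA, which contains the heptamer). Only the strand of the message was searched, in the longest annotated 3′UTR of each gene (GENCODE M21). Over 21020 protein-coding genes the shares were 10.7% and 2.35%, so the list, which was drawn up from reported targets, is rich in them by its making. The first octamer of 3 targets is shown with the 14 bases before it, the octamer in capitals, to show where miR-132-3p and miR-212-3p can pair.
*Ep300*, chr15:81652002-81652023, plus strand: tggatcactgtataGACTGTTA
*Foxo3*, chr10:42186162-42186183, minus strand: cctaacccagcagaGACTGTTA
*Itpkb*, chr1:180424708-180424729, plus strand: tcctttcctcttggGACTGTTA
Tested genes with an annotated 3′UTR were also split by the seed match. The 331 genes with the octamer had a median log2 fold change of 0.00 with 170 higher and 161 lower, and the 9159 genes without the heptamer had 0.00 with 4500 higher and 4659 lower.

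The lists were also tested within each transmitter class. In glutamatergic neurons edgeR called 0 of 12149 genes (0%; 676 with an unadjusted p under 0.05) and DESeq2 11 (0.0905%). In GABAergic neurons edgeR called 0 of 12096 (0%; 601 with an unadjusted p under 0.05) and DESeq2 3 (0.0248%). No gene of the IEG, CREB, coactivator, miRNA or target lists was among those called. The only list genes that DESeq2 called were oligodendrocyte markers, which fell, 3 of 6 in all neurons (*Mbp* and *Mobp* among them) and 1 of 6 in either class. Without AgRP-Gq;POMC-Gi replicate 2, 1 library of that group is left. The log2 fold change in neurons was then 0.31 for the IEG *Btg1*, and 0.34 and -0.36 for the miRNA genes *Tarbp2* and *Ran*. Among the targets it was 0.30 for *Arhgap32*, 0.26 for *Kdm5a*, 0.20 for *Ptbp2* and -0.31 for *Foxo3*. The coactivator *Crebbp* had -0.28, and *Ep300*, both coactivator and target, had -0.24. With AgRP-Gq;POMC-Gi replicate 1 left out instead, *Pcsk1* of the CREB and activity list had a log2 fold change of 0.69. These genes are named because their call changed in these fits. Each fit rests on 1 library of the group and also called genes outside the lists, so nothing is read from the calls. The median of the tested study IEGs was 0.14 in glutamatergic and -0.04 in GABAergic neurons, a difference that was not tested.

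The genes next to *1700016P03Rik* showed other patterns. *Ovca2*, on the opposite strand at 75175942 to 75178835, overlaps 1692 bases of its 3′ end, including exon 3. The kit marks strand, but the counting setting is not given in the sources used here, so some reads could be shared. *Ovca2* was at 2.35, 2.15, 2.22 and 2.41 CPM in neurons and *Dph1*, on the minus strand with its 3′ end next to the gene, at 5.99, 5.07, 4.36 and 5.58. *Smg6* upstream on the plus strand was at 274, 279, 310 and 271 CPM in neurons and at 235 ± 1.25 CPM in oligodendrocytes. Neither *Ovca2* nor *Dph1* followed the gene into ependymal cells, where each had UMIs in 1 library only. *Hic1*, which lies just upstream on the minus strand, was at 0.11 to 0.26 CPM in neurons, and *Rtn4rl1* downstream at 16.8, 14.1, 12.0 and 20.8 CPM with overlapping groups.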

How the data were processed

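Nuclei of the posterior hindbrain from 4 libraries, 2 per group, were profiled with the 10x Genomics 3′ kit. The authors mapped reads to GRCm38 and deposited UMI counts per gene and barcode, made with Cell Ranger 7.0.0, together with a table of nuclei that gives their quality filter, clusters and cell types (Seurat 4.3.0 and scVI; doublets were flagged by the authors before annotation). Whether intronic reads were counted is not given in the sources used here, and if they were, UMIs of unspliced host RNA are included. Only nuclei that passed the authors' filter were used. The matrix of all libraries joined repeats these counts and was not used. Neuronal UMIs summed to 26860073, 27431280, 35583732 and 35276413 per library in the order control 1 and 2, AgRP-Gq;POMC-Gi 1 and 2.

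UMIs were summed per library and cell type or cluster and divided by all UMIs of those nuclei (CPM). Clusters were called glutamatergic or GABAergic where *Slc17a6* or *Slc32a1* exceeded the other 4-fold in mean CPM, with at least 20 UMIs. Groups were compared with the quasi-likelihood test of edgeR 4.0.16 (TMM factors) in R 4.3.3 on summed UMIs, limited to genes detected in 5% or more of these nuclei, with Benjamini-Hochberg adjustment and a threshold of 0.05. Alternatives were DESeq2 1.42.0, other filters, no TMM factors, a replicate block and fits lacking 1 library. The edgeR fit and the odds ratios were checked on simulated data. Shares have exact Clopper-Pearson intervals at a level of 0.95, and a count of 0 allows 3 counts. Tables used Python 3.11.15 with scipy 1.17.1, numpy 2.4.6 and pandas 2.3.3. Plots used matplotlib 3.10.9.

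The gene, the lists and the tests were chosen with earlier results of these data known. Named genes were the gene itself, all study IEGs, in each other list those that passed and the 4 highest in neurons, the 10 most alike over clusters, and its neighbours. Genes of the co-detection order, those with an unadjusted p under 0.05, steps of the miRNA pathway and the targets with an octamer were added after their values were seen. Named clusters were the 8 highest and 5 lowest in level, the 6 highest and 6 lowest in fold change, and the Gcg/Reln, Ebf2/Th and Tal1/Nell1 clusters. Olfr78/Calcr and Tph2/Slc6a4 were added later. Some clusters and genes that these rules name are not reported here. Sequences come from RefSeq (GRCm38.p6) and GENCODE M21 by symbol, and the 4 mature miRNAs and both hairpins matched.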

Additional observations from a re-analysis of the deposited data

How the results depend on the processing

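The log2 fold change in neurons kept its sign in all 12 alternatives. It was 0.38 with clusters weighted alike and 0.33 with at most 1 UMI per nucleus, and 0.43 to 0.70 with 1 library left out. The list genes called went from 0 to 3 with DESeq2 in neurons and to 2 summed over both classes. With 1 library left out they were 0 to 18 in neurons, and 0 to 17 summed over both classes (neighbouring genes not counted), where the highest count in each came without AgRP-Gq;POMC-Gi replicate 2, a fit that called 2016 genes of 12114 in neurons. Such a fit assumes that the lone library of a group varies like those of the other group. The 2 groups share replicate numbers 1 and 2, and the difference between replicates correlated between groups with 0.18 over 12115 genes, too few pairs to show pairing. With the replicate block 5 list genes were called in neurons and 2 summed over both classes, all oligodendrocyte markers, while 167 of all 12114 genes (1.38%) were called in neurons, 1 in glutamatergic and 37 in GABAergic neurons, and the fold change of the gene was 0.56. The 27 clusters with the AgRP-Gq;POMC-Gi libraries higher became 36 to 51 with 1 library left out, when fewer libraries have to agree. The 8 clusters with them lower then became 14 to 24, and the share of all gene and cluster pairs with them higher rose from 15.1% to between 27.6% and 32.9%. The class fits with a block or a library left out and this last count were chosen after seeing the data. The neuron to oligodendrocyte ratio was 14.3 by share of nuclei at 800 UMIs and 12.1 to 13.4 with 1 library left out. Of the 10 genes most alike over clusters, 6 were shared with Pearson's r, 5 with clusters of at least 80 nuclei and 1 with control libraries alone; the cause was not tested. At 2000 UMIs the odds ratios of *Jun* and *Btg1* fell below 1, to 0.92 and 0.85, that of *Per1* fell from 3.34 to 1.85, and those of *Nr4a3* (6.69 to 17.6), *Gem* (3.32 to 7.08), *Fosl2* (9.78 to 17.5) and *Egr1* (2.33 to 5.72) rose by over 1.5 times. Without thinning the neuronal markers *Syt1* and *Snap25* stood at 1.35 and 2.00. That of *Fos* was 8.54 (6.67 without thinning). Depth limits single clusters, where the median library held 3 UMIs of the gene.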
